A study of Homo sapiens with 9 samples.

Results

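The genes described here are those that the nucleus supplies to the mitochondrial respiratory chain and to ATP synthase, as read from RNA sequencing of LN229 cells. LN229 is an established line derived from a human glioblastoma. They were chosen by symbol: protein-coding genes whose names begin with NDUFA, NDUFB, NDUFC, NDUFS, NDUFV, UQCR or ATP5, together with SDHA to SDHD, CYC1, CYCS and 10 genes for the common subunits of complex IV. The rule took 91 of the 23727 genes in the count table. It gave 37 genes of complex I, 8 assembly factors of complex I (NDUFAF genes), 4 of complex II, 10 of complex III, the cytochrome c gene, 12 of complex IV and 19 of ATP synthase. NDUFA4, whose product acts in complex IV, was counted there, and its relative NDUFA4L2 was placed with it. Of the 91 genes, 88 passed the filter on low counts, as did 15273 genes in all. The other 3, NDUFA7, NDUFV2 and the readthrough gene ATP5MF-PTCD1, held 78, 69 and 20 counts over all libraries.

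The medium was the same for all cells and held glucose at 17 mM, glutamine at 2 mM and serum at 10%. The 9 libraries formed 3 groups of 3: cells labelled untreated at 0 h, cells given 500 µM sodium formate for 8 h, and cells given 500 µM sodium formate for 24 h. One label spells the line LN299 and the growth protocol LN229, the name used here. Formate is a small metabolite that feeds the folate pathway. All untreated libraries analysed here are at 0 h, so formate and time in culture cannot be told apart, and no label says whether the replicates came from separate cultures. P-values then measure only the spread between these libraries, which may be technical.

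The respiratory chain passes electrons from NADH and succinate to oxygen. Complex I takes them from NADH and complex II, which is also the succinate dehydrogenase of the citric acid cycle, takes them from succinate. Complex III hands them to cytochrome c, and complex IV to oxygen. Complexes I, III and IV pump protons out of the mitochondrial matrix, and ATP synthase uses their return to make ATP. Most subunits are encoded in the nucleus and imported, while a small set of core subunits is encoded by mitochondrial DNA, so every complex except complex II is assembled from the products of both genomes.

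Promoters of these genes are known for sites of the nuclear respiratory factors NRF1 and GABPA, of YY1 and of the estrogen-related receptor ERRA (gene ESRRA). RefSeq promoter windows on GRCh38.p14, from 250 bases before to 50 bases after the start, were found for 73 of the 91 genes. The 150 bases upstream of the start are printed for 6 of them, 5 because they show the NRF1 and GABPA motifs in genes described below, and ATP5PF because it alone held a YY1 match in these 150 bases. Letters are 5′ to 3′ on the gene's strand, and capitals mark a match on either strand to GCGCA, any base and GCGC (NRF1), to CCGGAAG (GABPA) or to AAGATGGC (YY1).
UQCRC1, chr3:48609647-48609796, minus strand: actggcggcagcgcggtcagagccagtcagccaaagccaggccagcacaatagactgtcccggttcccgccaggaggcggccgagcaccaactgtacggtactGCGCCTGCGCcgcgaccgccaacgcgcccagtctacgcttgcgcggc
SDHA, chr5:218170-218319, plus strand: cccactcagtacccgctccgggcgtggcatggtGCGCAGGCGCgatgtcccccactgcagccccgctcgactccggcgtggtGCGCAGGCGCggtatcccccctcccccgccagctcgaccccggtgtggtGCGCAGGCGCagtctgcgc
SDHB, chr1:17054033-17054182, minus strand: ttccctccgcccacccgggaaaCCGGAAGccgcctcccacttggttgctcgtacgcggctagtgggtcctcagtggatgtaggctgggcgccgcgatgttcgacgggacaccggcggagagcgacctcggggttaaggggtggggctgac
SDHD, chr11:112086723-112086872, plus strand: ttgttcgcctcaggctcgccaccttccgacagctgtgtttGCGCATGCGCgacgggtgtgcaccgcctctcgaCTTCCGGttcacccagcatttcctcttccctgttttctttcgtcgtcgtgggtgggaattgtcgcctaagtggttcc
ATP5PF, chr21:25735055-25735204, minus strand: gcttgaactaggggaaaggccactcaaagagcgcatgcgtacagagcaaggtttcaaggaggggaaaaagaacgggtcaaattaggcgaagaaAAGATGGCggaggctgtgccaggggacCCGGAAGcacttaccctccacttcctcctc
NDUFA3, chr19:54102705-54102854, plus strand: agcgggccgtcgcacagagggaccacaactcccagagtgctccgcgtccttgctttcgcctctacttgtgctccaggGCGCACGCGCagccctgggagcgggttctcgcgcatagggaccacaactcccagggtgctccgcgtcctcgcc

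The SDHA window held 3 matches to the NRF1 motif, while the SDHD window held both an NRF1 and a GABPA match. In the whole 300-base window, the NRF1 motif was found in 17 of 73 genes (23.3%) and in 6.28% of 27305 promoters. The GABPA motif was found in 21 of 73 (28.8%) and in 10.7% of all promoters. AAGATGGC was found in 11 of 73 (15.1%, against 3.03%), and the ERRA motif CAAGGTCA in 4 of 73 (5.48%, against 1.33%). At least 1 of the 4 motifs was present in 41 of 73 genes (56.2%) and in 19.1% of all promoters. A match describes the letters only. The 17 genes with an NRF1 match had a median log2 fold change of -0.23 at 24 h against 0 h, and so did the 54 tested genes without one.

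Library totals ran from 22222298 to 25848242 counts, and 3 counts corresponded to 0.116 to 0.141 CPM, the count scaled to a common library size with TMM factors of 0.920 to 1.06. The glioma and neural markers NES, VIM, CD44, EGFR, SOX2 and TNC lay between 67.2 CPM (SOX2) and 6284 CPM (VIM) in every library, while SOX9 and GFAP had 175 and 52 counts in all. Of 10 markers of other cell types, CD3E and RBFOX3 had no entry, and PTPRC, PECAM1, CD68 and EPCAM had 15, 10, 8 and 4 counts over all libraries. The summed level of these markers was 18.9 to 21.9 CPM at 0 h, 14.5 to 21.1 at 8 h and 21.96 to 26.4 at 24 h. Most of that sum came from KRT8, SYP and MBP together, so not all of the listed markers were near absent. VWF, an endothelial marker, rose at 24 h against 0 h from 0.308 to 0.566 CPM to 1.04 to 1.58 CPM (log2 fold change 1.60, adjusted p = 0.0304 by edgeR), as did S100B among the glioma markers (1.38, adjusted p = 0.0460; 1.13 without untreated replicate 1, adjusted p = 0.103). Of the 8 glioma markers tested 5 were below 0, among them VIM (-0.46 without a replicate block) and CD44 (-0.38). Both fell with the block and were called by DESeq2. The part of all these markers in the results below was not tested.

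A single untreated library, replicate 1, stood apart for nearly all of these genes. Summed over all members, it was 11245, 8244 and 7681 CPM in untreated replicates 1, 2 and 3. The sum was 8477, 8288 and 8053 CPM at 8 h, and 8169, 7268 and 7713 CPM at 24 h. Untreated replicate 1 was thus above all 8 other libraries, which lay close together. It was the highest of the 9 libraries for 81 of the 88 tested members, against 30.1% of all tested genes, and above both other untreated replicates for 84, against 43.4%. The 7 members that peaked elsewhere were NDUFA3, NDUFA5, NDUFS1, NDUFAF7, SDHC, UQCRHL and NDUFA4L2. The ratio of untreated replicate 1 to the mean of replicates 2 and 3 had a median of 1.45 over the members, from 0.864 for UQCRHL to 1.97 for NDUFAF8.

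**Figure D1:**
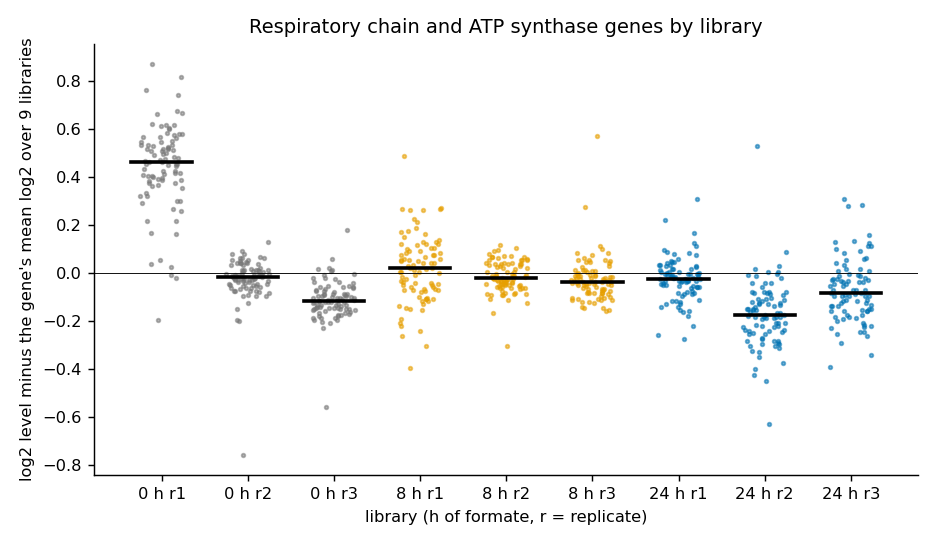
Level of each of the 88 tested members in each library, as log2 CPM minus the gene's own mean over the 9 libraries (y axis, log2); points are genes, bars are medians, and libraries are on the x axis by hours of formate and replicate. The median in untreated replicate 1 was 0.46, while the other 8 medians lay between -0.18 and 0.02.

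Transcript length moved with this excess, in members and in other genes. Length classes were set after the data were seen. Among other protein-coding genes, the median log2 ratio of untreated replicate 1 to replicates 2 and 3 was 0.47 for transcripts under 1000 bases and -0.23 for those of 4000 bases or more. The members had 0.58 and 0.36 in the same classes, and their median was the higher in each length class. Length was that of the best-ranked annotated transcript, the longest where ranks tied. It can be long for the coding sequence, as for ATP5F1E with 3665 bases and 153 coding bases. Some members may thus sit in too long a class. Their transcripts were short, with a median of 1147 bases against 3263.5 for other protein-coding genes. The part of length in the results below was not tested.

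**Figure D2:**
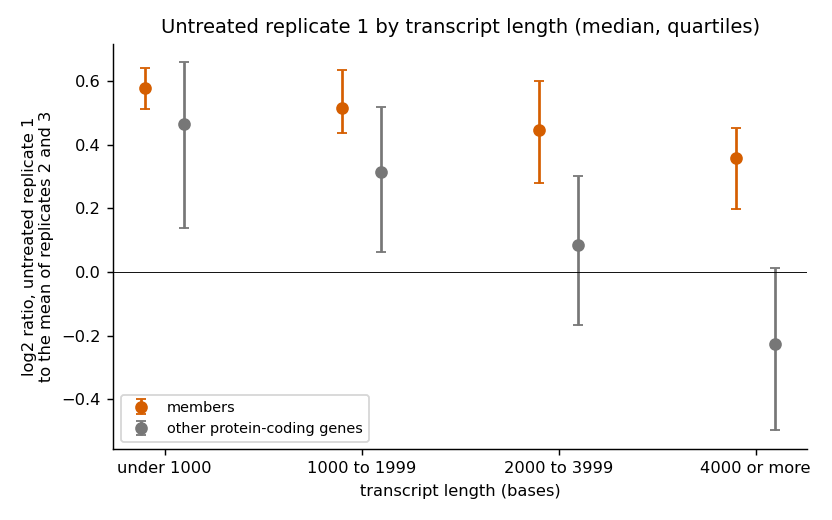
Log2 ratio of untreated replicate 1 to the mean of untreated replicates 2 and 3 (y axis) by transcript length class (x axis, bases), for the 88 members and 12542 other tested protein-coding genes; points are medians and bars run from the lower to the upper quartile. From the shortest to the longest class medians went from 0.58 to 0.36 in members and from 0.47 to -0.23 in the others.

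After 24 h of formate the members stood below the untreated level as a group, but none passed the test. The fitted change was below 0 for 81 of 88 members (49.1% of all genes), with a median log2 fold change of -0.23 against 0.01 over all genes. The quasi-likelihood test of edgeR called 0 of 88 members (adjusted p under 0.05, Benjamini-Hochberg over all genes), where it called 4.25% of all tested genes, and DESeq2 also called 0 members (11.8% of the 14087 genes with an adjusted p). The smallest adjusted p was 0.117, for UQCRC1. An unadjusted p under 0.05 was reached by 16 members (18.2%), 15 of them lower, against 26.4% of all genes, or 12.6% for lower alone. Without untreated replicate 1 the median was -0.05, 64 of 88 members were below 0 (51.4% of all genes) and 0 were called (2.28% of all genes), with 2 at an unadjusted p under 0.05 (18.6% of all genes). Both of these, NDUFA3 and NDUFA4L2, were higher (9.64% of all genes).

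Pairing the libraries by replicate number raised the calls among all genes from 4.25% to 24.1%, and changed the call for part of the group. With the replicate number as a block in the same fit, 14 of 88 members (15.9%) fell at 24 h, where 11.6% of all genes fell, and 0 rose, where 12.6% of all genes rose (24.1% in either direction). The 14 were NDUFS6, NDUFS8, NDUFB7, NDUFB8, NDUFAB1, NDUFAF4, NDUFAF8, SDHB, UQCRC1, CYC1, CYCS, COX6A1, ATP5F1B and ATP5F1D. Each complex had at least 1 of them, but the members' share called in either direction, 15.9%, was below that of all genes. When untreated replicate 1 was left out of the blocked fit, 9 of the 14 were still called lower (NDUFS6, NDUFS8, NDUFB7, SDHB, UQCRC1, CYC1, CYCS, ATP5F1B and ATP5F1D), and NDUFA3 and NDUFA4L2 were called higher (12.6% of all genes lower, 11.9% higher, 24.5% in all). With replicate 1 left out of every group and no block, UQCRC1, CYC1 and ATP5F1D were called, all lower, where 16.9% of all genes were called.

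**Figure D3:**
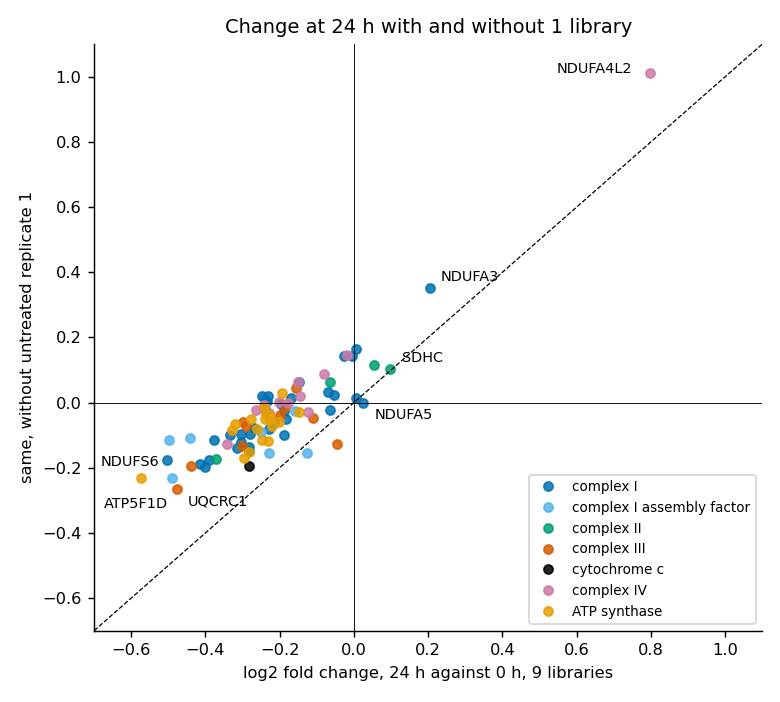
Fitted log2 fold change at 24 h against 0 h of the 88 tested members with all 9 libraries (x axis) and without untreated replicate 1 (y axis); each point is a gene, coloured by complex, and the dashed line marks equal values. Most points lie above the line, so most changes were less negative without that library; UQCRC1 was at -0.27 and NDUFA4L2 at 1.01.

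Complex I, the NADH dehydrogenase, summed to 2484 ± 515 CPM at 0 h, 2275 ± 40.7 at 8 h and 2154 ± 94.5 at 24 h (SD, n = 3). Its 35 tested subunit genes had a median log2 fold change of -0.23 at 24 h against 0 h, from -0.50 for NDUFS6 to 0.20 for NDUFA3, and 31 were below 0. Without untreated replicate 1 the median was -0.02 and 22 were below 0. NDUFS6 (chr5:1801400-1816605 in GENCODE on GRCh38), an accessory subunit of the NADH-oxidising arm, was at 186, 107 and 97.5 CPM at 0 h, 122, 108 and 114 at 8 h, and 96.7, 89.2 and 89.5 at 24 h. The 24 h libraries all lay below the untreated ones, the highest of which was replicate 1. NDUFS6 changed by -0.50 ± 0.20 (SE; adjusted p = 0.142, and 0.0393 with the block), and by -0.18 without untreated replicate 1.

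NDUFS8, an iron-sulfur subunit of the enzyme's core, was at 105, 66.4 and 68.6 CPM at 0 h, 78.5, 67.9 and 66.5 at 8 h, and 66.1, 51.5 and 62.3 at 24 h. Its 24 h libraries lay just under the lowest untreated one (log2 fold change -0.42 ± 0.17, adjusted p = 0.154, and 0.0219 with the block; -0.19 without untreated replicate 1). NDUFS1, the largest core subunit, instead overlapped between all groups, at 158 to 174 CPM at 0 h, 164 to 181 at 8 h and 154 to 190.0 at 24 h. NDUFA5, an accessory subunit, was at 59.5 to 60.8 CPM at 0 h, 55.3 to 64.2 at 8 h and 56.4 to 63.8 at 24 h. For neither gene did untreated replicate 1 stand out.

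NDUFA3, an accessory subunit of the membrane arm, had the largest positive change in complex I. It was at 15.9, 11.6 and 11.6 CPM at 0 h, 12.4, 12.4 and 12.1 at 8 h, and 15.6, 13.3 and 16.2 at 24 h. The 24 h libraries were above both 8 h and 2 of the 3 untreated ones, but reached only the level of untreated replicate 1 (log2 fold change 0.20 ± 0.14, adjusted p = 0.379; 0.35 without that library, adjusted p = 0.146). The other 30 tested subunits lay between these extremes.

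The 8 NDUFAF assembly factors, which build complex I without staying in it, were all below 0 at 24 h, with a median of -0.24 and a range of -0.50 to -0.13 (median -0.11 without untreated replicate 1). NDUFAF8 was at 103, 54.8 and 49.8 CPM at 0 h, 65.7, 53.8 and 51.8 at 8 h, and 59.3, 36.4 and 51.2 at 24 h. The groups overlapped, and its change of -0.50 ± 0.26 went to -0.11 without untreated replicate 1 (adjusted p = 0.233, 0.0468 with the block, and 0.772 without that library). NDUFAF4 was at 15.8, 9.28 and 9.96 CPM at 0 h, 11.2, 9.27 and 10.5 at 8 h, and 8.16, 8.28 and 8.46 at 24 h. Its 24 h libraries were tightly spaced below all untreated ones (-0.49 ± 0.19, adjusted p = 0.141, and 0.0478 with the block; -0.23 without untreated replicate 1). NDUFAF1 and NDUFAF7 had the smallest changes, -0.16 and -0.13.

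The 4 genes of complex II did not move as one at 24 h: 2 had changes below 0 and 2 above. SDHB (chr1:17018722-17054170), the iron-sulfur subunit, was at 109.8, 74.5 and 73.4 CPM at 0 h, 83.1, 80.7 and 75.7 at 8 h, and 70.7, 63.1 and 65.5 at 24 h. Every 24 h library was below every untreated and every 8 h library (log2 fold change -0.37 ± 0.14 against 0 h, adjusted p = 0.140, and 0.0340 with the block; -0.17 without untreated replicate 1). SDHC, a membrane anchor, was at 74.0, 77.0 and 63.9 CPM at 0 h, 63.8, 77.6 and 71.6 at 8 h, and 77.1, 71.8 and 81.2 at 24 h, so its groups overlapped (0.10 ± 0.11, adjusted p = 0.573). SDHD, the other anchor, was at 12.3 to 15.1 CPM at 0 h and 13.8 to 14.5 at 24 h (0.05 ± 0.12). SDHA, the flavoprotein that oxidises succinate, was at 19.5 to 27.0 CPM at 0 h and 21.0 to 22.3 at 24 h (-0.06 ± 0.12, and 0.06 without untreated replicate 1), with its reads possibly shared with pseudogene copies. Neither gene passed the test. The difference between SDHB and its partners was not tested.

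Complex III summed to 1041 ± 244 CPM at 0 h, 949 ± 38.4 at 8 h and 856 ± 64.3 at 24 h (SD, n = 3), and all 10 of its genes were below 0 at 24 h (median -0.24, and -0.07 without untreated replicate 1). UQCRC1 (chr3:48599002-48610976), a core protein on the matrix side, was at 241, 165 and 152 CPM at 0 h, 193, 169.6 and 159.8 at 8 h, and 156, 122 and 123 at 24 h. The 24 h libraries lay below all those of 8 h, and replicate 1 of 24 h was just above untreated replicate 3. Its change at 24 h was -0.48 ± 0.17 (adjusted p = 0.117, and 0.00499 with the block), and it was -0.27 without untreated replicate 1. Its partner core protein UQCRC2 was at 118 to 139 CPM at 0 h and 111 to 121 at 24 h (-0.11 ± 0.09, adjusted p = 0.461).

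CYC1, the cytochrome subunit that passes electrons on to cytochrome c, was at 156, 102 and 93.3 CPM at 0 h, 122, 109 and 91.8 at 8 h, and 101.0, 78.2 and 80.0 at 24 h. Replicate 1 was the highest in each group, and the groups overlapped (-0.44 ± 0.19, adjusted p = 0.169, and 0.0127 with the block; -0.19 without untreated replicate 1). UQCRFS1, the Rieske iron-sulfur protein, was at 41.5 to 66.9 CPM at 0 h and 40.1 to 45.1 at 24 h (-0.29 ± 0.16; -0.07 without untreated replicate 1). UQCRQ, a small subunit, had a change of -0.15, which became 0.04 without untreated replicate 1. UQCRH, the hinge subunit, was at 246, 159 and 152 CPM at 0 h and 163, 134 and 154 at 24 h (-0.30 ± 0.17, adjusted p = 0.269; -0.06 without untreated replicate 1). Its near-identical copy UQCRHL, with 88 of 91 residues the same, had only 0.656 to 1.14 CPM, and reads of the pair could have been split between them.

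CYCS encodes cytochrome c, the mobile carrier between complexes III and IV, which also starts apoptosis when released into the cytosol. It was at 236, 196 and 186 CPM at 0 h, 205, 181 and 199 at 8 h, and 176, 171 and 159 at 24 h. The 24 h libraries lay below all the others (log2 fold change -0.28 ± 0.11 against 0 h, adjusted p = 0.142, and 0.0368 with the block). The change was -0.19 without untreated replicate 1.

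Complex IV, cytochrome c oxidase, summed to 1439 ± 341 CPM at 0 h, 1287 ± 16.1 at 8 h and 1275 ± 87.5 at 24 h (SD, n = 3). Its 12 genes had a median of -0.16 at 24 h against 0 h and of 0.00 without untreated replicate 1. COX4I1, a subunit that takes part in its regulation, was at 379.8, 247 and 235 CPM at 0 h, 280.0, 257 and 246 at 8 h, and 259.6, 229.5 and 239 at 24 h, so apart from untreated replicate 1 the groups overlapped (-0.24 ± 0.16, and -0.01 without it). COX6A1 was the complex IV gene that fell with the block. It was at 52.7, 35.9 and 32.9 CPM at 0 h and 35.5, 30.2 and 29.97 at 24 h (-0.34 ± 0.16, adjusted p = 0.199, and 0.0491 with the block; -0.13 without untreated replicate 1). COX5A had a change of -0.26 and COX7C of -0.02, and without untreated replicate 1 these were -0.02 and 0.15.

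NDUFA4L2, known as a hypoxia-induced relative of NDUFA4, had the highest change at 24 h of the 88 members, 7 of which were above 0. It was at 0.707, 0.424 and 0.487 CPM at 0 h, 0.545, 0.744 and 1.06 at 8 h, and 0.888, 1.04 and 0.870 at 24 h. Every 24 h library was above every untreated one, all of them at or near 1 CPM (log2 fold change 0.80 ± 0.32, adjusted p = 0.154; 1.01 without untreated replicate 1). NDUFA4, with 52 residues in common over the 81 of its own chain, was at 177 to 263 CPM at 0 h and 179 to 199 at 24 h (-0.14 ± 0.14). The RNA of NDUFA4 was thus by far the more abundant of the pair in every library.

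ATP synthase had the highest summed CPM of the complexes, counting the nuclear members only and without division by length. It was 3466 ± 703 CPM at 0 h, 3178 ± 109 at 8 h and 2902 ± 185 at 24 h (SD, n = 3). All 18 tested genes were below 0 at 24 h, with a median of -0.24, from -0.57 to -0.15. Without untreated replicate 1 the median was -0.06. ATP5F1D (chr19:1241746-1244826), the delta subunit of the rotating central stalk, was at 100.6, 54.3 and 54.5 CPM at 0 h, 68.6, 55.6 and 56.2 at 8 h, and 51.1, 41.8 and 47.7 at 24 h. The 24 h libraries lay below all the others, and untreated replicate 1 was far above both its replicates (-0.57 ± 0.21, adjusted p = 0.128, and 0.0160 with the block), and without that library the change was -0.23. ATP5F1C, the gamma subunit of the same stalk, was at 119.9 to 163 CPM at 0 h and 117 to 134 at 24 h (-0.15 ± 0.12; -0.03 without untreated replicate 1). ATP5F1E, the epsilon subunit, had a change of -0.19, and of 0.03 without untreated replicate 1.

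In the catalytic head, ATP5F1B (beta subunit) was at 1173, 930.0 and 851 CPM at 0 h, 977, 939 and 876 at 8 h, and 878, 763 and 765 at 24 h. The groups overlapped only through replicate 1 of 24 h (-0.30 ± 0.14, adjusted p = 0.190, and 0.0353 with the block; -0.17 without untreated replicate 1). ATP5F1A (alpha subunit) was at 461 to 652 CPM at 0 h and 439 to 491 at 24 h (-0.25 ± 0.13; -0.11 without untreated replicate 1). ATP5PO, a part of the stator, had -0.33 ± 0.17 and -0.08 without untreated replicate 1. ATP5IF1, the inhibitor that blocks ATP hydrolysis, was at 55.7 to 72.1 CPM at 0 h and 48.1 to 54.5 at 24 h, with no overlap (-0.23 ± 0.11, adjusted p = 0.220; -0.12 without untreated replicate 1).

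The c subunits of the membrane ring come from 3 genes, whose precursors differ in the import sequence and share their last 77 to 83 residues. Per kilobase of transcript, ATP5MC1 gave 44.5% ± 0.876 of their summed level at 0 h, ATP5MC2 44.6% ± 0.757 and ATP5MC3 10.8% ± 0.195 (SD, n = 3). At 24 h the shares were 43.6% ± 0.943, 45.5% ± 0.971 and 10.9% ± 0.392. The sizes of these shares depend on the transcript lengths used, 614, 1950 and 5484 bases in the same order. Per kilobase of the union of all exons, the mean levels over the 9 libraries were 30.1, 62.1 and 24.9 CPM. The ranges of the shares overlapped between 0 h and 24 h for each gene, although all 3 were highest in untreated replicate 1. Their log2 fold changes at 24 h were -0.26, -0.20 and -0.22, and -0.08, -0.06 and -0.07 without untreated replicate 1.

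**Figure D4:**
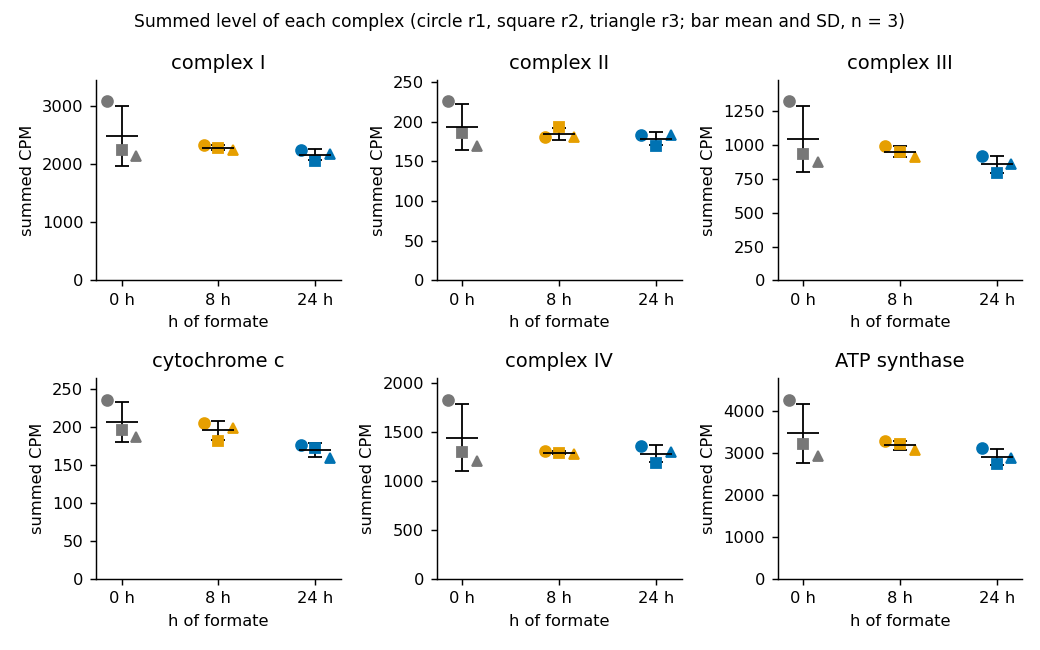
Summed CPM of the genes of each complex (y axis, starting at 0) by hours of formate (x axis); circles, squares and triangles are replicates 1, 2 and 3, and bars give the mean and SD of 3 libraries. Untreated replicate 1 is the highest point in all 6 panels, and the cytochrome c panel shows all 24 h libraries below the others.

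Groups whose replicates did not overlap at 24 h against 0 h were found for 14 lower members (15.9%; background 14.4% of all genes) and for 1 higher member, NDUFA4L2 (background 15.9%). The share of lower members was near the background.

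After 8 h of formate no member passed the test. Of 88 members 0 were called by edgeR, as were 0.0% of all tested genes, and the smallest adjusted p was 0.99985. DESeq2 called 0 members and 0.0% of all genes as well, and an unadjusted p under 0.05 was reached by 0 members and by 0.517% of all genes. The fitted change was below 0 for 85 members, with a median of -0.14, against 56.7% and -0.02 for all genes. Leaving out untreated replicate 1 turned this direction: 73 of 88 members were then above 0 and the median was 0.05, against 48.6% of all genes above 0. The largest negative value, -0.35 for ATP5PO, came from 74.5, 48.5 and 44.2 CPM at 0 h and 39.2, 45.8 and 45.8 at 8 h. Those groups overlapped, as they did for every tested member (1.89% of all genes had no overlap and were lower, 1.43% higher).

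From 8 h to 24 h, a comparison without the untreated libraries' own levels, 0 of 88 members were called by edgeR and by DESeq2 (4.56% of all genes by edgeR and 9.55% by DESeq2), and an unadjusted p under 0.05 was reached by 1, UQCRC1, against 22.8% of all genes. The fitted change was below 0 for 67 members (47.9% of all genes) and the median was -0.08, against 0.02. UQCRC1 had -0.38 (adjusted p = 0.208). Replicates did not overlap for 16 lower members (18.2%, near the background of 16.2%), among them UQCRC1, SDHB, CYCS, ATP5F1D and NDUFS6. They did not overlap for 4 higher members of 88, a share below the background of 18.2%. These were NDUFA1, NDUFA2, NDUFA3 and NDUFB1 of complex I, which also held 8 of the 16 lower members. The untreated libraries still enter the shared estimate of the spread, and without untreated replicate 1 SDHB, UQCRC1, NDUFS6 and ATP5F1D were called, all lower (7.87% of all genes lower, 16.3% in all). Members called under other fits of this comparison are set beside 20.5% of all genes with the block, 34.8% with the block and without untreated replicate 1, and 19.9% without replicate 1 in every group.

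The subunits encoded by mitochondrial DNA went the other way at 24 h. All 13 were above 0 at 24 h against 0 h, with a median log2 fold change of 0.58, where 81 of 88 nuclear members were below 0. MT-ND5, a proton-pumping subunit of complex I, was at 291, 393 and 607 CPM at 0 h, 497, 331 and 570 at 8 h, and 745, 831 and 719 at 24 h. Every 24 h library was above all the others, and untreated replicate 1 was the lowest of the 9 (0.83, adjusted p = 0.0780, and 0.00997 with the block). Of the 13, 0 were called by edgeR without the block (4.25% of all genes) and 2 by DESeq2, MT-ND4 and MT-ND5 (11.8% of all genes). An unadjusted p under 0.05 was reached by 8 (26.4% of all genes), and 12 rose with the block (12.6% of all genes). Replicates did not overlap for 9, all higher (15.9% of all genes). The median without untreated replicate 1 was 0.52. Replicate 2 of 8 h was the lowest of its group for all 13 transcripts. For MT-CO1, a core subunit of complex IV, it was 1284 CPM at 8 h, against 1933 and 2477 in replicates 1 and 3. The difference between the nuclear and the mitochondrial genes was not tested.

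**Figure D5:**
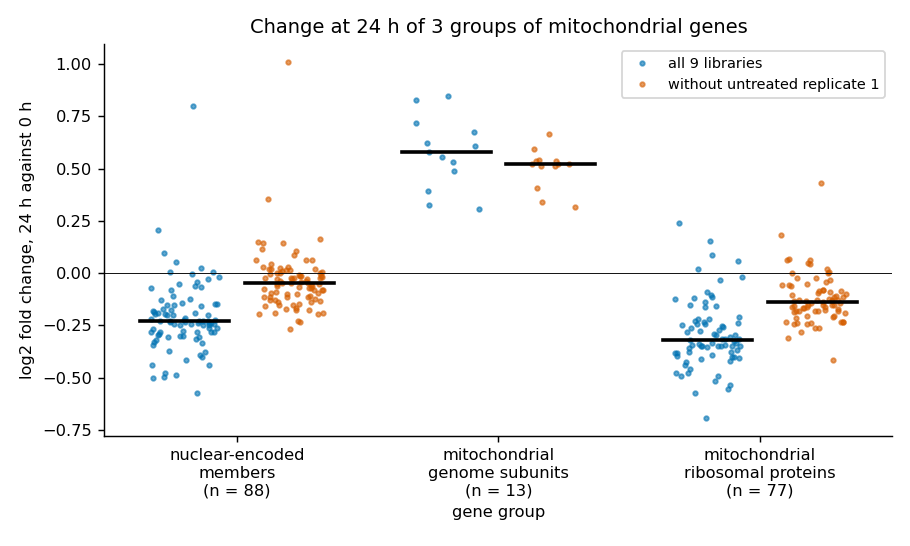
Log2 fold change at 24 h against 0 h (y axis) of nuclear-encoded members, subunits encoded by mitochondrial DNA and mitochondrial ribosomal proteins (x axis), with all 9 libraries and without untreated replicate 1; points are genes and bars are medians. The medians with all libraries were -0.23, 0.58 and -0.32, and without that library -0.05, 0.52 and -0.14.

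Other nuclear genes of the mitochondrion were read from the same fit. Mitochondrial ribosomal proteins, which translate the mitochondrial messages, had a median of -0.32 at 24 h against 0 h, with 72 of 77 below 0. Of these genes 0 were called by edgeR (4.25% of all genes) and 3 by DESeq2, MRPL51, MRPS23 and MRPS35 (11.8% of all genes). An unadjusted p under 0.05 was reached by 34, all lower (26.4% of all genes, or 12.6% for lower alone). With the block 38 of them fell (11.6% of all genes). Their median was -0.14 without untreated replicate 1. MRPS35 had the smallest p of them without the block (-0.33, adjusted p = 0.0933 by edgeR). Assembly factors outside the NDUFAF family gave medians of -0.07 for complex I (8 of 8 below 0), 0.00 for complex II (2 of 4), -0.20 for complex III (4 of 6), -0.13 for complex IV (18 of 22) and -0.07 for ATP synthase (4 of 4). The same medians without untreated replicate 1 were -0.02, 0.08, -0.13, -0.04 and -0.0018. With the block, 1 of the complex I list fell, 2 of complex III and 5 of complex IV, and none of complex II or ATP synthase (11.6% of all genes fell). Without the block, genes with the smallest p in these lists were ECSIT (-0.41), SDHAF3 (0.26), BCS1L (-0.34), COA7 (-0.30) and TMEM70 (-0.18). All had an adjusted p over 0.05 by edgeR. With the block the smallest adjusted p in the lists of complexes I, III and IV was 0.0220, 0.0173 and 0.0208.

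The citric acid cycle genes apart from succinate dehydrogenase had a median of -0.12 (11 of 14 below 0, 3 lower with the block), and fumarase, FH, which takes the product of complex II, had -0.49 (adjusted p = 0.126, and 0.00813 with the block). Without untreated replicate 1 the list's median was -0.06 and FH was at -0.24. With the block 11.6% of all genes were lower and 12.6% higher, for this list and those that follow. Carriers and pores for ATP, ADP and phosphate had a median of -0.26 (6 of 7 below 0, 2 lower with the block). They were led by VDAC3, an outer membrane channel (-0.39, adjusted p = 0.0971 by edgeR without the block). Their median was -0.07 when untreated replicate 1 was left out, with 5 of 7 below 0, and VDAC3 was at -0.26. Of the tissue isoforms of complex IV, only COX7A2L, which helps join complexes III and IV, passed the filter (-0.09). The regulators had a median of -0.15 (8 of 11 below 0). With the block, POLRMT, the mitochondrial RNA polymerase, fell (-0.32 with the block, adjusted p = 0.0240) and GABPA rose (0.35 with the block, adjusted p = 0.0286). Without untreated replicate 1 and with no block, POLRMT was at -0.24, GABPA at 0.099 and the median of the list at -0.08. Beyond those named, no gene of these pathway lists was called by edgeR without the block or by DESeq2. The coactivator gene PPARGC1A had 13 counts over all libraries, and NRF1 was at 32.3 to 37.6 CPM at 0 h and 28.1 to 33.4 at 24 h.

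Levels were compared between genes per kilobase of the principal transcript. Complex IV and ATP synthase had the highest medians among the complexes, 86.8 and 94.8 CPM per kilobase, followed by complex III at 58.6 and complex I at 49.7, while the complex II genes had a median of 9.27 and the NDUFAF genes 11.6. The highest single gene was ATP5F1B at 492, followed by COX8A, a small complex IV subunit, at 356, and COX4I1 at 302. In complex I the highest were NDUFS5 (230.4) and NDUFB9 (141), and the lowest tested were NDUFA9 (2.198) and NDUFA13 (6.79). In ATP synthase ATP5PD followed ATP5F1B at 211, and ATP5MG (25.6) and ATP5MC3 (30.8) were lowest. In complex II the iron-sulfur gene SDHB stood at 67.1 against 5.39 to 9.44 for its partners. Before division by length, the CPM of SDHB was 0.806 to 1.48 times that of SDHC. The gap to SDHC per kilobase thus lies in the transcript lengths used. Complex III was led by UQCRH (276) and UQCRQ (172), with UQCRFS1 (13.4) and UQCRHL (0.377) at its foot, and in complex IV COX7B (28.98) and NDUFA4L2 (0.634) were lowest. Among the NDUFAF genes NDUFAF8 (94.996) and NDUFAF2 (21.7) stood above the rest, and NDUFAF4 (4.21) and NDUFAF5 (3.53) below. The length used matters: with the union of all exons, medians were 42.6 for ATP synthase, 55.6 for complex IV, 36.9 for complex III, 24.3 for complex I and 4.97 for complex II.

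Some of these levels depend on how reads were assigned. The coding exons of NDUFA7, NDUFV2, ATP5MF-PTCD1 and UQCR11 were covered in full by another annotated gene on the same strand, and those of NDUFA13 in 98.4%, and the first 3 are the members that did not pass the filter. In all, 15 members had such an overlap of coding exons, among them NDUFA9, NDUFB8, SDHD, COX6A1, COX8A, ATP5MG and ATP5PO, and 26 had at least 5% of their exons overlapped on the opposite strand. Annotated pseudogene copies existed for 53 members, and the 33 copies in the table held 5213 counts against 1739393 for the members. For SDHA, 3 copies held 4560 counts against 4538 for SDHA itself, so its level is uncertain, and a copy of the untested NDUFV2 held 37 counts against 69.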

How the data were processed

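RNA from 9 LN229 libraries was sequenced from a stranded mRNA kit. The authors deposited 1 table of raw counts per Ensembl gene, whole numbers that are not normalized. The submitters' processing notes name GRCh38, STAR 2.7.4a and bcl2fastq 2.20.0.422; the counting program, annotation and strand setting are not given in the sources used here. Symbols came from an Ensembl name table (19733 of 23727 genes). Coordinates, lengths and overlaps came from GENCODE release 29 on GRCh38, and promoters from RefSeq.

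filterByExpr dropped thinly counted genes, libraries were scaled with TMM, and 1 mean per group was fitted to all 9 libraries with edgeR 4.0.16 (quasi-likelihood test, two-sided, Benjamini-Hochberg adjustment over all genes, threshold 0.05). Fold changes are log2 with standard errors. On simulated data, this fit recovered 90.9% of 200 genes changed 2-fold, with 4.26% false calls, over 15093 genes. The simulation gave every gene the same dispersion, with no deviating library and no pairing. It does not show how often changes as small as those of the members would be found. Alternatives were other scalings, no filter, 2 groups only, a replicate block, each library left out, replicate 1 left out and DESeq2 1.42.0. Same-numbered libraries, numbered in the titles, deviated together. Their r was 0.476, 0.432 and 0.414 between 0 h and 8 h, and 0.367, 0.164 and 0.251 between 0 h and 24 h. Deviations were taken from the mean of the 3 libraries of a group, so these values are not independent of each other. Differently numbered libraries were not compared, so whether the numbers mark pairs was not tested. Blocked calls against 0 h are given as counts, with blocked values for some of the genes.

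The members and the gene lists were chosen with earlier results of these data known. Named genes are any member called (0), per complex the 2 highest and 2 lowest changes at 24 h and levels per kilobase, 17 chosen subunits, and the smallest p of each list; others are named to complete a count, after their values were seen. Residues were compared from GENCODE coding sequences, in place of the planned RefSeq proteins. One marker gene of the lists is not reported here.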

Additional observations from a re-analysis of the deposited data

How the results depend on the processing

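Sizes of change depended on untreated replicate 1, which most alternatives keep. Without it the members' median at 24 h against 0 h went from -0.23 to -0.05. Most directions held under the alternatives: of 874 values for 46 named members at 24 h against 0 h, 841 kept their direction. Of the other 33, in 10 members, each was small. Without replicate 1 in every group, with the replicate block and that, and with the block and without untreated replicate 1 (chosen after seeing the data), in that order, the log2 fold change was 0.038, 0.037 and 0.021 for ATP5F1E, 0.14, 0.14 and 0.15 for COX7C, 0.019, 0.018 and 0.015 for NDUFA4, 0.081, 0.082 and 0.050 for SDHA, and 0.049, 0.050 and 0.038 for UQCRQ. With library size only it was 0.065 for COX7C, 0.018 for SDHA and 0.028 for UQCRHL, and with upper quartile scaling 0.0023 for COX7C. With library size only the median of all genes moved to 0.08 and that of the members to -0.15. Leaving out 1 library at a time gave ranges of -0.32 to 0.029 for ATP5F1E, -0.14 to 0.15 for COX7C, -0.39 to 0.019 for NDUFA13, -0.26 to 0.021 for NDUFA4, -0.011 to 0.080 for NDUFA5, -0.36 to 0.0035 for NDUFS5, -0.16 to 0.063 for SDHA, -0.013 to 0.12 for SDHD, -0.13 to 0.058 for UQCRHL and -0.28 to 0.044 for UQCRQ. The cause was not tested.

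Counts moved more. At 24 h against 0 h, all genes called numbered 124 with only the 2 groups, 3687 with the block, 2616 without replicate 1 in every group, 3991 with both, 3816 with the block and without untreated replicate 1, 1656 with DESeq2, and 0 to 899 with 1 library left out; the 0 came without 24 h replicate 2 or 3 (edgeR, with 2550 and 2563 at an unadjusted p under 0.05). Members called were 14 with the block, 3 without replicate 1 in every group, 7 with both, and 11 with the block and without untreated replicate 1. At 24 h against 8 h, genes called were 1787, 3130, 3072, 4477, 5432 and 1458 in the same order of settings, and 0 to 2545 with 1 library left out. There the 0 came without 24 h replicate 2 or 3 or 8 h replicate 1 (2446, 2177 and 2078 at an unadjusted p under 0.05). Members called were 1 with only the 2 groups, 2 with the block (UQCRC1 and CYC1), 5 without replicate 1 in every group, 11 with both, 21 with the block and without untreated replicate 1, and 0 to 4 with 1 library left out. Same-numbered libraries of 8 h and 24 h correlated at 0.423, 0.0367 and 0.404. Replicate 2 thus showed little pairing there, and the blocked calls of that comparison are named only here. At 8 h against 0 h the members' median ran from -0.23 to 0.049 with 1 library left out. In the 150 bases before the start, AAGATGGC was found in 1 member and CAAGGTCA in 2. Among tested members depth limits UQCRHL and NDUFA4L2 most, at about 1 CPM, where 3 counts are 0.116 to 0.141 CPM.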

Other observations

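Ratios between partner subunits within a library do not depend on library scaling. The pairs below were chosen after their values were seen, and no test was made. UQCRC1 stood to UQCRC2 as 1.73, 1.40 and 1.29 at 0 h, 1.68, 1.40 and 1.33 at 8 h, and 1.29, 1.102 and 1.07 at 24 h in replicates 1, 2 and 3. In each numbered trio the 24 h library had the lowest ratio, and replicate 1 the highest ratio at each time. SDHB stood to SDHC as 1.48, 0.968 and 1.15 at 0 h, 1.30, 1.04 and 1.06 at 8 h, and 0.917, 0.879 and 0.806 at 24 h. All 24 h libraries were below the others. ATP5F1D stood to ATP5F1C as 0.617, 0.415 and 0.455 at 0 h, 0.550, 0.410 and 0.453 at 8 h, and 0.381, 0.358 and 0.390 at 24 h, again below all the others.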
